A study of Mus musculus with 14 samples.

Results

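The DBA/2J retinal vein libraries in which the scaled count of Lcn2, an acute-phase iron-carrier gene, was below 1000 were compared with normotensive control libraries across genes. The rule took 3 of the 9 DBA/2J libraries (samples 1, 3 and 4) and set them beside all 5 control libraries, so 8 of the 14 libraries of the series entered. The control strain was DBA/2J-Gpnmb+/SjJ, which carries a working Gpnmb allele on the DBA/2J background. The other strain was DBA/2J, which lacks that working allele. Both strains share the rest of that background, including its mutant Tyrp1 allele. All mice were 9 months old and had been given 0.33 mg sodium fluorescein per g body weight 5 minutes before death. Each library held 4 major veins of 1 mouse with their main branches, dissected by hand under fluorescence. Replicates are therefore mice, and the sex of the mice was not given in the sources used here. Per its title, the series concerns raised intraocular pressure and the barrier between blood and retina.

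DBA/2J mice are a standard model of inherited glaucoma. Mutations in pigment genes lead to dispersal of iris pigment, a rise in intraocular pressure with age, and loss of retinal ganglion cells, at a pace that differs between animals. Retinal veins are lined by endothelial cells whose tight junctions form part of the barrier between blood and retina, and they are wrapped by mural cells and by the end-feet of astrocytes and Müller glia. In inflamed vessels, venous endothelium is the site where selectins and adhesion molecules capture leukocytes, and Lcn2, Lrg1 and Serpina3n are known as markers of the acute-phase and reactive glial response.

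Lcn2 stood at 229.7, 399, 237, 173 and 228 in control samples 1 to 5. It stood at 526, 342 and 573 in DBA/2J samples 1, 3 and 4, so the chosen libraries overlapped the controls. In the other 6 DBA/2J libraries it ran from 1750.1 to 16300.4, with a median of 5686. The libraries were chosen by these Lcn2 values, which are given as a description. Just inside the threshold lay DBA/2J sample 4 at 573, and just outside it DBA/2J sample 5 at 1750.1. The same 3 libraries were also the 3 lowest DBA/2J libraries for Lrg1 and for Serpina3n. Because a measured gene chose them, no p-value is given for the 3 libraries against the 5 controls. A gene is described as not overlapping when all 3 libraries lay above, or all 3 below, all 5 controls. The test given beside these values is limma over all 14 libraries (9 DBA/2J against 5 control), which does not use the split. The verbs rose and fell are kept for genes past that test. As an alternative, the same fit with log2 Lcn2 as a covariate estimates the strain difference at equal Lcn2, also without choosing libraries. That covariate is the gene that chose the 3 libraries, so its calls are no independent check on them. Of the DBA/2J libraries only sample 3 (342) lay within the control range of 173 to 399. The estimate at equal Lcn2 therefore rests largely on extrapolation.

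Gpnmb, the melanosomal glycoprotein gene that distinguishes the strains, matched the label of every library. Its scaled count was 3190.1, 1837, 1409, 1645 and 1649 in the controls and 157, 124 and 65.4 in the 3 low-Lcn2 libraries, with no overlap. The other 6 DBA/2J libraries held 83.7 to 516. The difference of the mean log2 values was -4.09 for the low-Lcn2 libraries, and Gpnmb fell in the test over all libraries (log2 fold change -3.56, SE 0.38, adjusted p = 4.35e-05, limma). With log2 Lcn2 as a covariate the adjusted p was 0.00412, and with the mean of a list of lens genes 0.237 (-2.80). Its GRCm38 position is chromosome 6, 49036546 to 49070929, forward strand. Among 50 coding genes within 5 Mb of it, 6 were above and 5 below every control, with a median difference of 0.109.

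**Figure D1:**
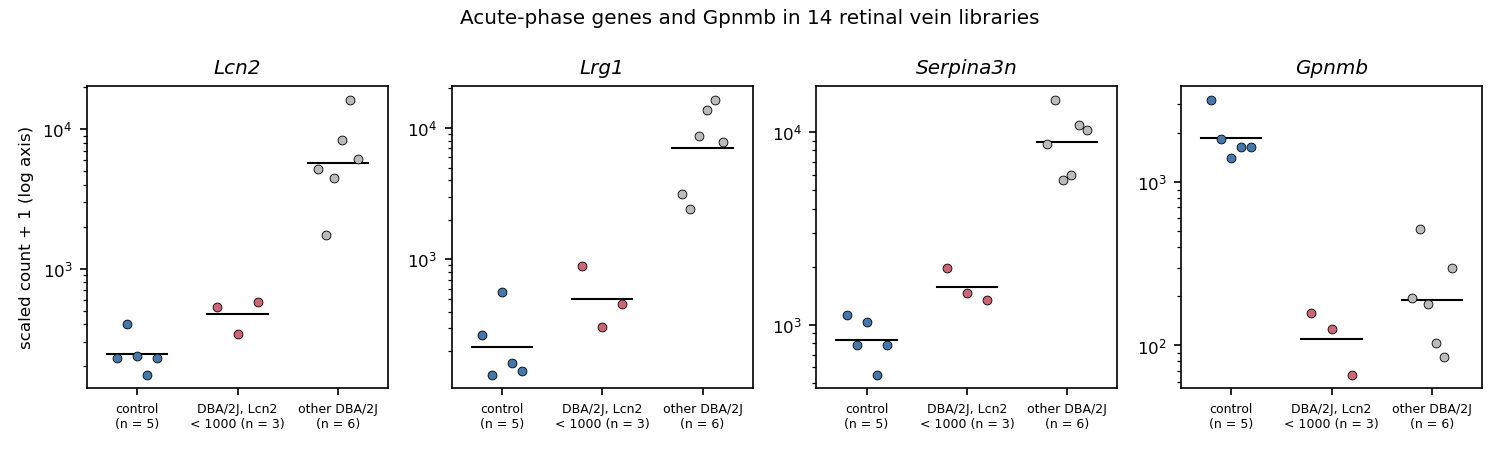
Scaled counts plus 1 of Lcn2, Lrg1, Serpina3n and Gpnmb on a log axis in 5 control libraries, 3 DBA/2J libraries with Lcn2 below 1000 and 6 other DBA/2J libraries. Each point is 1 library and each line the mean of the log values. The 3 libraries lay at 342 to 573 for Lcn2, next to the controls, and at 65.4 to 157 for Gpnmb, next to the other DBA/2J libraries.

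Several properties of the libraries moved with the groups. Estimated depth, read from the spacing of low values, was 8931959 reads in DBA/2J sample 1, 10534194 in sample 4 and 21407305 in sample 3, against 17774394 to 23437512 in the controls. Library numbers were 16, 17, 18, 28 and 30 in the controls and 31, 33 and 34 in the low-Lcn2 libraries, so strain and the order of library numbers cannot be told apart. On the second principal component (13.4% of variance) the 3 libraries lay at 53.7, 56.3 and 71.8, and DBA/2J sample 2, with Lcn2 at 5232, lay among them at 59.4. The remaining 5 DBA/2J libraries lay between -86.3 and -19.1. Control sample 3 stood farthest out on the first component at -144.5. Lens genes (23 of 24 listed were measured) took 8.09% to 17% of the scaled counts in controls and 0.0159% to 0.994% in the 3 libraries. Rod and cone genes took 2.85% to 5.59% and 5.4% to 8.15%. Pan-endothelial genes, which mark the labelled tissue, took 0.122% to 0.175% and 0.126% to 0.183%, and all 20 were measured. In these bulk samples, fewer cells of a type and less RNA per cell cannot be told apart.

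Genes differed from the controls in equal numbers in both directions in the low-Lcn2 libraries. Of 29166 genes tested, 2762 lay above every control (9.47%) and 2765 below (9.48%). Among these non-overlapping genes, differences of the means over 2-fold on the log2(value + 1) scale numbered 1287 higher and 1310 lower. When libraries were scaled to their own totals instead, the counts were 4580 above and 1664 below, and the median of all genes moved from -0.009 to 0.16. That scaling turned the medians of 6 lists named in the following paragraphs from slightly negative to slightly positive: pan-endothelial (0.024), junctions (0.057), Norrin and Wnt (0.055), microglia (0.022), pericytes (0.073) and Müller glia (0.079). Among 14889 coding genes averaging 1 CPM (counts scaled to a common library total) or more, 15.8% lay above and 13.1% below every control, 28.9% in all, with a median difference of 0.1. Counts of coding gene lists are to be read against these shares. Over all 14 libraries, limma called 12.1% of genes higher and 7.2% lower (20.9% and 8.79% of the coding genes). Of these calls 62.6% were higher, against 80.6% under own-total scaling, 48.9% under quantile normalization and 42.3% once the length and GC trend was removed. With log2 Lcn2 as a covariate, it called 1646 genes higher (5.64%) and 1200 lower (4.11%), or 10.1% and 6.11% of the coding genes. When the lens mean was the covariate, 1 gene was called higher and 8 lower. No DBA/2J library held a lens share above 1.13% and no control one below 8.09%, so lens content and strain cannot be told apart.

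**Figure D2:**
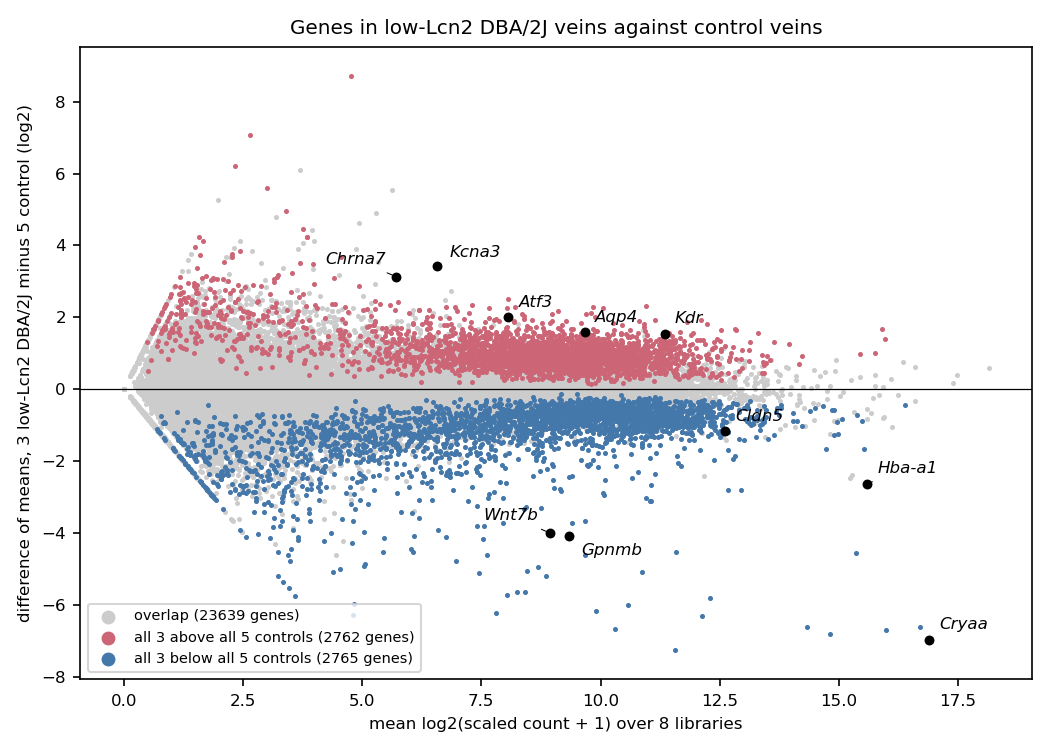
Difference of the mean log2(scaled count + 1) between 3 low-Lcn2 DBA/2J and 5 control libraries (vertical) against the mean over the 8 libraries (horizontal), 1 point per gene. Red points are the 2762 genes above every control, blue points the 2765 below every control, and black points are named genes from Kcna3 at 3.44 to Cryaa at -6.96.

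Some acute-phase genes stood above control level even in the chosen libraries. Of the 18 members of the acute-phase list, 4 lay above every control and none below, with a median difference of 0.75. Among all coding genes 15.8% lay above. In the other 6 DBA/2J libraries the median was 2.25 against the same controls. The DBA/2J libraries were split on Lcn2, itself an acute-phase gene, so this gap follows in part from the choice. Serpina3n, a serine protease inhibitor of reactive astrocytes, stood at 1119, 781, 1033, 550.0 and 787 in the controls and at 1968, 1450.1 and 1335 in the 3 libraries. Every one of the 3 was above every control, and the other 6 libraries started at 5601. Cp, the copper-carrying ferroxidase ceruloplasmin, was at 1078 to 1741 in the controls and 2243, 2308 and 2749 in the 3 libraries, again with no overlap. Lrg1, a secreted glycoprotein known for its action on vessels, overlapped: the 3 libraries held 887, 305 and 460.2, and the controls 132 to 567. With log2 Lcn2 as a covariate the adjusted p was 0.314 for Serpina3n, 0.139 for Cp and 0.676 for Lrg1.

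The transcription factor and receptor upstream of that response, as textbooks place them, were also higher. Stat3, which carries interleukin-6 family signals to the nucleus, stood at 450.0, 352, 351, 358 and 356 in the controls and at 738, 682 and 839 in the 3 libraries. All 3 lay above all 5 controls and below the other 6 DBA/2J libraries (1227 to 1343). Stat3 rose over all libraries (log2 fold change 1.53, SE 0.18, adjusted p = 0.000119, limma), and with log2 Lcn2 as a covariate the adjusted p was 0.0108. Il1r1, the interleukin-1 receptor, stood at 532, 484, 353, 352 and 517 in the controls and at 1118, 791 and 821 in the 3 libraries. It rose as well (1.95, SE 0.40, adjusted p = 0.00358), but with log2 Lcn2 as a covariate the adjusted p was 0.26. Of the 18 members of the list, limma called 13 higher over all libraries and 1 with log2 Lcn2 as a covariate.

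**Figure D3:**
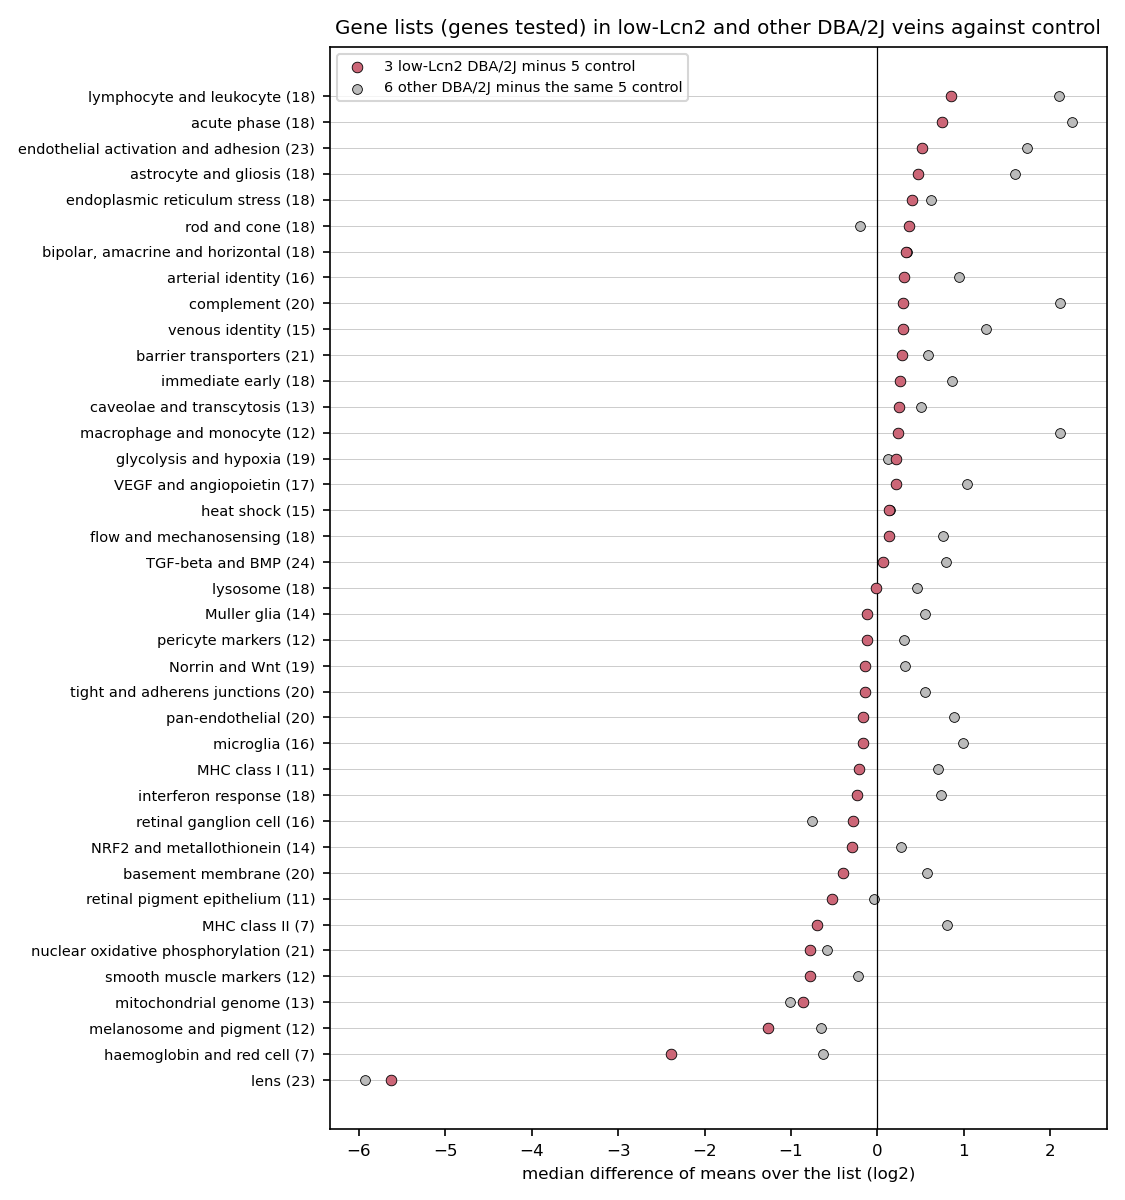
Median difference of the mean log2(scaled count + 1) from the 5 controls over each of 39 gene lists, with the number of genes tested in brackets. Red points are the 3 low-Lcn2 DBA/2J libraries and grey points the other 6, which share the same controls. Red points ran from -5.63 for the lens list to 0.85 for the lymphocyte and leukocyte list.

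Vcam1, Icam1 and Sele, adhesion molecules of activated endothelium, overlapped control level, while Selp lay above every control at low counts. Among 23 activation and adhesion genes, 4 were above every control and 0 below, with a median difference of 0.52 against 1.73 in the other 6 DBA/2J libraries. That median was 0.188 without DBA/2J sample 1 and 0.23 without control sample 5. The count above was near the 15.8% of all coding genes. After removal of the length and GC trend 2 of the 23 lay above and 0 below (median 0.37), where 9.8% of coding genes lay above. Vcam1, which binds leukocyte integrins, was at 968 to 1985 in the controls and 2397, 1468 and 2547 in the 3 libraries. Icam1, another integrin ligand, was at 386 to 1119.6 and 901, 658 and 407. Both overlapped the controls. Sele, the endothelial selectin, was at 17.7, 13.7, 0, 0 and 13.9 in the controls and 79.1, 7.27 and 22.4 in the 3 libraries, and also overlapped. Selp, the platelet and endothelial selectin, was at 0 to 2.82 and 16.4, 4.7 and 6.89, which rests on an estimated 3.7 reads over all controls and 18.7 over the 3 libraries. In the other 6 libraries Selp ran from 70.0 to 2498. Ptgs2, the inducible prostaglandin synthase, stood at 24.9, 23.4, 17.2, 36.9 and 45.5 in the controls and at 127, 117 and 54.0 in the 3 libraries. It lay above every control and rose over all libraries (2.89, SE 0.51, adjusted p = 0.00171), with an adjusted p of 0.146 with log2 Lcn2 as a covariate.

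Tnfaip3, a brake on NF-kB signalling, was the 1 activation gene that limma called higher with log2 Lcn2 as a covariate (adjusted p = 0.0309). Its values were 3067, 2958, 956, 887 and 2715 in the controls and 4092, 5948 and 6597 in the 3 libraries. Those 3 lay above every control, while the other 6 DBA/2J libraries ran from 2521 to 4903. Without the covariate it rose by 1.06 (SE 0.33, adjusted p = 0.0303). That call was missed when control sample 3 or 4, or DBA/2J sample 4 or 7, was left out (adjusted p from 0.051 to 0.11) and after removal of the trend with transcript length and GC (0.262).

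Kdr and Ptprb were above every control and Cldn5 and Egfl7 below, while most endothelial genes overlapped the controls. Of 20 pan-endothelial genes, 4 lay above every control and 3 below, with a median difference of -0.17. In the other 6 DBA/2J libraries the median was 0.89. Kdr, the main receptor for vascular endothelial growth factor A (VEGF-A), stood at 1938, 1495, 1464, 1607 and 2325 in the controls and at 4997, 3710.0 and 7034 in the 3 libraries. All 3 were above all 5 controls and within the range of the other 6 (3609 to 8618). Kdr rose over all libraries (1.68, SE 0.20, adjusted p = 0.000129, limma), and it was the 1 pan-endothelial gene called with log2 Lcn2 as a covariate (1.49, adjusted p = 0.0106). Ptprb, the phosphatase that restrains the angiopoietin receptor Tek, was at 751 to 1779 in the controls and 3047, 2246 and 3441 in the 3 libraries. It rose by 1.58 (SE 0.33, adjusted p = 0.0041), with an adjusted p of 0.107 with the covariate.

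Cldn5 and Egfl7 lay on the other side. Cldn5, the main claudin of the barrier, stood at 7201, 6917, 13563, 7515 and 8643 in the controls and at 5021, 2499.9 and 4254 in the 3 libraries. Each of the 3 was below every control, whereas the other 6 DBA/2J libraries spread from 3247 to 18948. Over all libraries Cldn5 did not pass the test (-0.45, SE 0.39, adjusted p = 0.458), and with log2 Lcn2 as a covariate its value was -1.44 (adjusted p = 0.0598). Egfl7, a secreted endothelial matrix protein, was at 1762 to 4331 in the controls and 1455, 1079 and 1025 in the 3 libraries, below every control (adjusted p = 0.516 over all libraries and 0.0671 with the covariate). Pecam1 and Cdh5, general endothelial adhesion genes, overlapped the controls: Pecam1 was at 1070.1 to 2133 and 2098, 1599 and 2782, and Cdh5 at 127 to 354 and 128, 144 and 192. Vwf and Nr2f2, marks of venous endothelium, overlapped as well, with Vwf at 1805 to 7285 and 2142, 1483 and 1949.

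The VEGF and angiopoietin list held 3 of 17 genes above every control and 3 below, with a median of 0.22, which was -0.044 after removal of the length and GC trend. Besides Kdr, Flt1, the decoy receptor of VEGF-A, was at 979 to 1899 in the controls and at 2126, 2713 and 3019 in the 3 libraries. It rose by 1.22 (SE 0.30, adjusted p = 0.0101), and missed the threshold with the Lcn2 covariate (0.207) and after removal of the length and GC trend (0.0787). Angptl4 and Vegfb, secreted ligands of the list, fell. Angptl4, a secreted inhibitor of lipoprotein lipase induced by low oxygen, stood at 487, 408, 423, 275 and 236 in the controls and at 117, 139 and 54.4 in the 3 libraries, with no overlap. Its log2 fold change over all libraries was -1.37 (SE 0.27, adjusted p = 0.00295), and -1.80 with log2 Lcn2 as a covariate (adjusted p = 0.0119). Vegfb, a ligand of Flt1, was at 1974 to 3510.4 in the controls and 1355, 1359 and 1216 in the 3 libraries. It fell by 0.72 on the log2 scale (SE 0.16, adjusted p = 0.00506).

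Tjp1 and Jam2 lay above every control while the median of the junction list was near control. Of 20 tight and adherens junction genes, 3 lay above every control and 2 below (median -0.14, and 0.55 in the other 6 libraries). Tjp1, a scaffold that links tight junctions to actin, was at 139.8 to 248 in the controls and 337, 325 and 390.4 in the 3 libraries. Jam2, a junctional adhesion molecule, was at 619.5 to 1344 and 1444, 1627 and 2645. Both rose (adjusted p = 0.00682 and 0.00771) and passed with the covariate (0.0447 and 0.0456), but neither passed after removal of the length and GC trend (0.175 and 0.126).

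Genes of transcytosis and transport gave values in both directions. Of 13 caveolar and transcytosis genes, 3 lay above every control and 3 below, with a median of 0.25. Pacsin2, which shapes caveolar membranes, was at 977 to 2224 in the controls and 2487, 2910.1 and 4682 in the 3 libraries. It rose by 0.98 (SE 0.21, adjusted p = 0.0043), and by 1.21 with log2 Lcn2 as a covariate (adjusted p = 0.0198). Cavin3, a coat protein of caveolae, was at 1185 to 2942 in the controls and 761, 778 and 712 in the 3 libraries, below every control. It did not pass over all libraries (-0.25, adjusted p = 0.649) and passed with the covariate (-1.25, adjusted p = 0.0416). Plvap, the diaphragm protein of leaky endothelium, stood at 749.9, 668, 1154, 847 and 693 in the controls and at 488, 473 and 434 in the 3 libraries. All 3 were below all 5, with no call over all libraries (adjusted p = 0.347) or with the covariate (0.244). Among 21 barrier transporters 1 lay above and 1 below every control. The one above was Slc6a6, the taurine transporter, at 1209 to 2912 in the controls and 3626, 4023 and 5009 in the 3 libraries. It rose by 1.14 (SE 0.26, adjusted p = 0.00666), and missed the threshold after removal of the length and GC trend (0.0788). With that trend removed, no barrier transporter lay above every control and 3 lay below. Mfsd2a, a lipid transporter that suppresses transcytosis, overlapped at 147 to 299 and 264, 104 and 164.

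**Figure D4:**
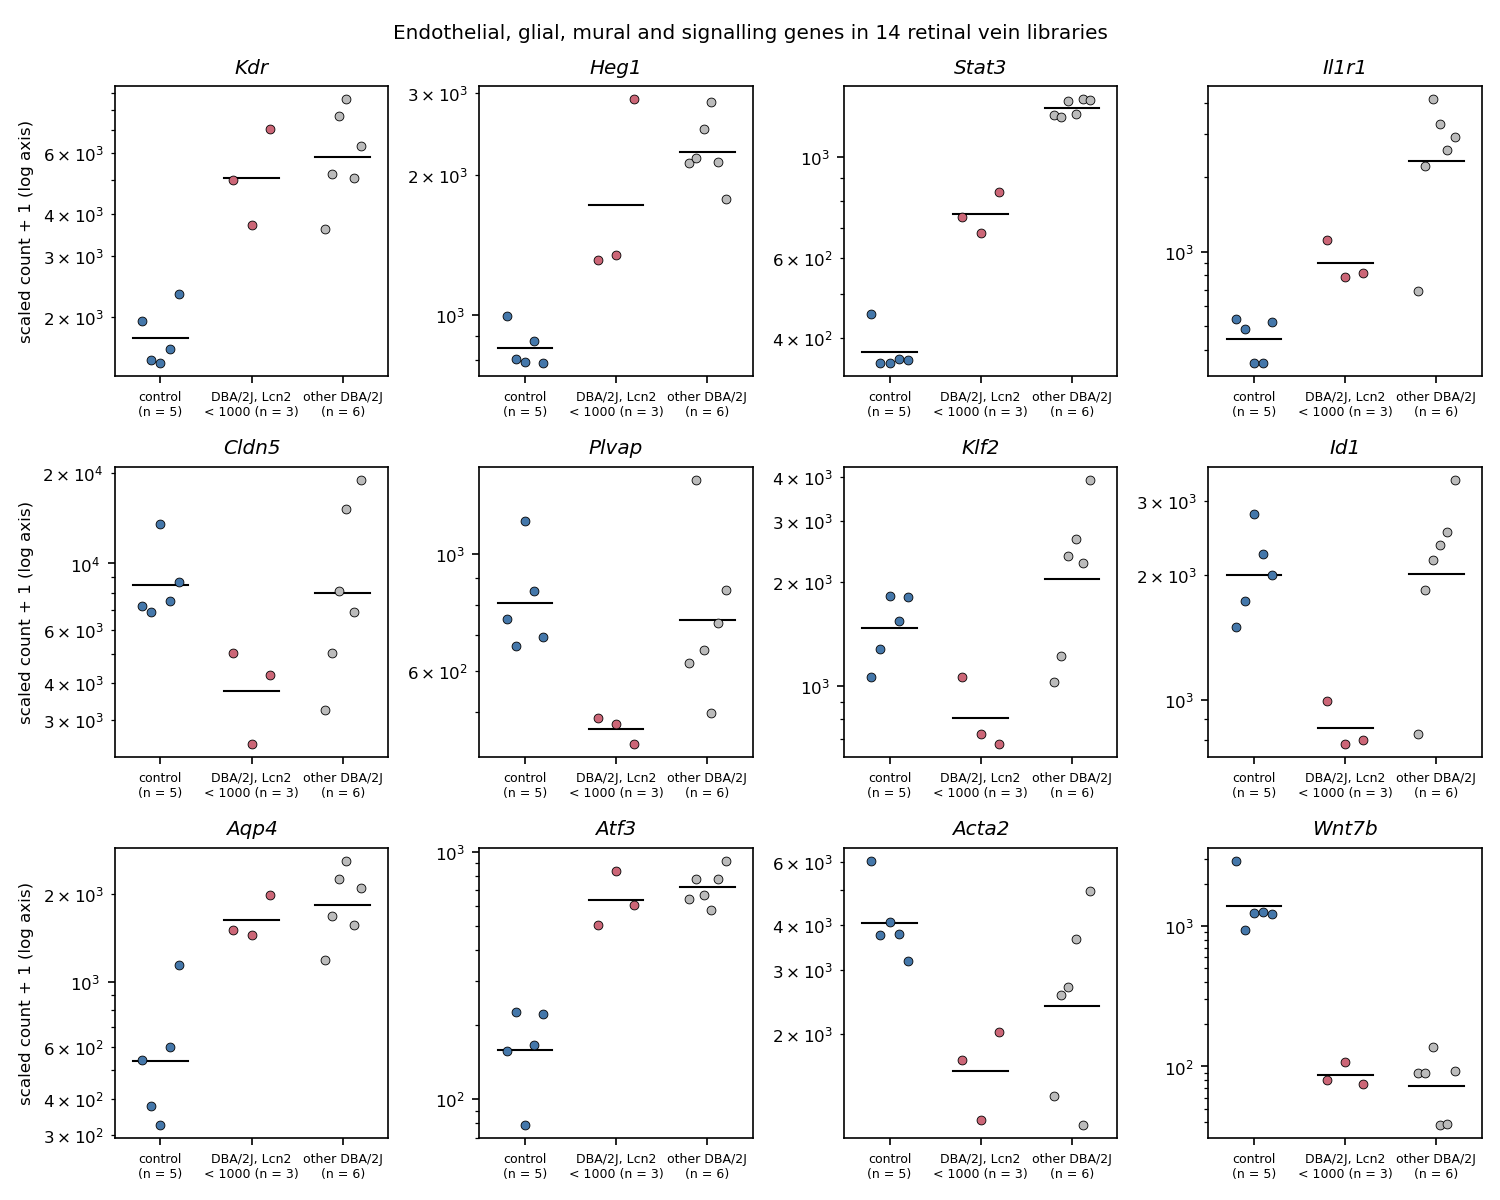
Scaled counts plus 1 on a log axis for 12 genes in 5 control libraries, 3 DBA/2J libraries with Lcn2 below 1000 and 6 other DBA/2J libraries. Each point is 1 library, and each line is the mean of the log values. The 3 libraries lay above every control for Kdr, Heg1, Stat3, Il1r1, Aqp4 and Atf3 and below every control for Cldn5, Plvap, Klf2, Id1, Acta2 and Wnt7b.

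Klf2, Id1 and Id3 lay below every control, while the medians of the lists that hold them were near control. Of 18 flow and mechanosensing genes, 2 lay above every control and 1 below (median 0.14), and of 24 genes of the TGF-beta and bone morphogenetic protein (BMP) list, 4 lay above and 4 below (median 0.07). After removal of the length and GC trend, the flow list held 2 above and 0 below (median 0.04). The TGF-beta and BMP list then held 1 above and 4 below (median -0.03), where 9.8% of coding genes lay above and 11.6% below. Its median without that removal was -0.014 when DBA/2J sample 1 was left out and 0.537 with Lcn2 below 2000. Klf2, the flow-induced transcription factor of quiescent endothelium, stood at 1059.7, 1273, 1819.7, 1541 and 1805 in the controls and at 1056, 726 and 677 in the 3 libraries. DBA/2J sample 1 lay just below the lowest control, so the separation rests on a gap of a few counts there. After removal of the length and GC trend Klf2 overlapped the controls, and its difference moved from -0.869 to -0.486. The differences of Id1 (-1.228 to -0.889) and Id3 (-1.206 to -0.853) also became smaller. Klf2 did not pass over all libraries (0.02, adjusted p = 0.976) or with log2 Lcn2 as a covariate (-1.14, adjusted p = 0.0541). Id1, a direct BMP target, stood at 1491, 1723, 2793, 2237 and 1992 in the controls and at 994, 781 and 799.8 in the 3 libraries. Id3, its relative, was at 2655 to 4182 and 1600.1, 978 and 1343. Neither passed over all libraries (adjusted p = 0.436 and 0.541), and both passed with the covariate (-1.41, adjusted p = 0.025, and -1.31, adjusted p = 0.0488). The ligand gene Bmp4 was at 398 to 989 in the controls and 385, 217 and 371 in the 3 libraries (adjusted p = 0.446 over all libraries).

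The type I receptor gene Bmpr1a stood the other way, at 162 to 508 in the controls and 667, 809 and 1209 in the 3 libraries. It rose by 1.21 (SE 0.29, adjusted p = 0.00796), and by 1.81 with log2 Lcn2 as a covariate (adjusted p = 0.0115). Over the 24 genes of the TGF-beta and BMP list, 4 lay above and 4 below every control, with a median of 0.07. After removal of the length and GC trend 1 lay above and 4 below. Heg1, which ties the CCM complex to endothelial junctions, stood at 994, 802, 789, 876 and 785 in the controls and at 1309, 1345 and 2912 in the 3 libraries. Heg1 rose over all libraries (1.28, SE 0.19, adjusted p = 0.000547) and with the covariate (0.97, adjusted p = 0.0268). Across the 18 flow and mechanosensing genes, 2 lay above and 1 below every control, with a median of 0.14. Jag1, a Notch ligand of arterial endothelium, was at 421 to 907 in the controls and 1243, 1722 and 2076 in the 3 libraries, also above the median of the other 6 (1142). It rose by 1.02 (SE 0.23, adjusted p = 0.00666) and by 1.54 with the covariate (adjusted p = 0.00932), but missed the threshold after removal of the length and GC trend (0.109).

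In the Norrin and Wnt list 5 of 19 genes lay below every control and none above (median -0.14). Wnt7b, a canonical Wnt ligand, stood at 2894, 929.7, 1244, 1254 and 1213 in the controls and at 79.4, 107 and 74.2 in the 3 libraries. The groups were far apart, and the other 6 DBA/2J libraries held 37.2 to 137. Wnt7b fell over all libraries (-4.16, SE 0.31, adjusted p = 7.16e-07), and also with log2 Lcn2 (-3.64, adjusted p = 0.000467) or the lens mean (-3.26, adjusted p = 0.0175) as a covariate. Its relative Wnt7a was at 5.21, 3.09, 2.61, 9.65 and 4.55 in the controls and 0, 0.282 and 1.76 in the 3 libraries, all at low counts. Sox17, an endothelial transcription factor downstream of Norrin, was at 929 to 1185 and 754, 436 and 682. It lay below every control with no call over all libraries (adjusted p = 0.615) or with the Lcn2 covariate (0.0847). Fzd4, the Norrin receptor, overlapped at 645 to 1335 and 1059.8, 1240.0 and 1139.

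The contractile genes Acta2 and Tpm2 of mural cells lay below every control, while the smooth muscle list that holds them went both ways. Differences in that list ran from -1.36 to 2.17, and limma called 1 gene higher and 1 lower over all libraries. After removal of the length and GC trend, 5 genes still lay below every control and 2 above. Of 12 smooth muscle genes 5 lay below every control and 2 above, with a median of -0.78, and the list's summed share was 0.0436% to 0.0566% in controls and 0.0243% to 0.0353% in the 3 libraries. Acta2, smooth muscle actin, stood at 6016, 3747, 4083, 3772 and 3186 in the controls and at 1697, 1153 and 2024 in the 3 libraries. All 3 lay below all 5, and the other 6 ran from 1117 to 4985. Acta2 fell over all libraries (-0.96, SE 0.31, adjusted p = 0.0371). That call was missed when any of control samples 1 to 4 or DBA/2J samples 1, 2, 3, 4 or 8 was left out (adjusted p from 0.0535 to 0.0872), and with log2 Lcn2 as a covariate (0.0706). Tpm2, a tropomyosin, was at 1010.3 to 2424 in the controls and 641, 398 and 788 in the 3 libraries (adjusted p = 0.0918 over all libraries; 0.0265 without DBA/2J sample 9). Among 12 pericyte genes 1 lay below every control, and the pericyte marker Rgs5 overlapped at 1985 to 5046 and 3278, 2452 and 2657.

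Aqp4 and potassium channels of glia were above every control, while Vim and Lgals3 were below. Of 14 Müller glia genes, 4 lay above and 4 below every control, with a median of -0.12. Aqp4, the end-foot water channel, stood at 541, 377, 324, 599 and 1144 in the controls and at 1497, 1443 and 1976 in the 3 libraries. All 3 lay above all 5, within the range of the other 6 (1184 to 2578), and the difference of 1.59 was 0.97 against controls 4 and 5 alone. Aqp4 rose over all libraries (1.71, SE 0.25, adjusted p = 0.000509) and with log2 Lcn2 as a covariate (1.60, adjusted p = 0.0154). Kcnj10, the potassium channel that works beside it, was at 662 to 1417 in the controls and 1949.5, 1989 and 3001 in the 3 libraries. Kcnj2, another inward-rectifier potassium channel, was at 23.1 to 149.8 and 265, 173 and 262. Both rose (1.30, adjusted p = 0.000992, and 1.49, adjusted p = 0.00561) and passed with the covariate (0.0144 and 0.0241).

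Vim, the intermediate filament of Müller glia and endothelium, stood at 8669, 6315, 13388, 7343 and 7091 in the controls and at 4128, 2824 and 3116 in the 3 libraries. Each of the 3 was below every control. Over all libraries the value was -0.70 (adjusted p = 0.0746; 0.0192 without DBA/2J sample 9), and -1.38 with log2 Lcn2 as a covariate (adjusted p = 0.0177). Gfap, the filament of reactive glia, overlapped at 2442 to 8489.9 in the controls and 8054, 4799 and 5619 in the 3 libraries, while the other 6 ran from 8902 to 34067. Over the 18 astrocyte and gliosis genes, 4 lay above and 3 below every control, with a median of 0.47 against 1.59 in the other 6 libraries. Cd44, a hyaluronan receptor of reactive glia, was at 100.2 to 363 and 446, 434 and 576, and rose by 1.65 (SE 0.28, adjusted p = 0.00119; 0.0477 with the covariate). Lgals3, a galectin of reactive and phagocytic cells, was at 1626 to 3399 and 1045, 560.3 and 674. It did not pass over all libraries (adjusted p = 0.0692; 0.0145 without DBA/2J sample 9, 0.0459 with median-of-ratios scaling and 0.0385 with quantile normalization) and passed with the covariate (-1.85, adjusted p = 0.0154).

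Immune lists differed in their medians, and most of their genes overlapped the controls. The lymphocyte and leukocyte list had a median of 0.85 (2.10 in the other 6 DBA/2J libraries). With 5 instead of 1 added to each value before the log, the median in the 3 libraries was 0.47, so it depended on low counts. In this list 3 of 18 genes lay above every control, near the 15.8% of all coding genes, and none below. Its summed share was 0.00307% to 0.00571% in the controls and 0.00693% to 0.0086% in the 3 libraries, with no overlap. The 3 genes were Kcna3, Ly75 and Laptm5. Of 12 macrophage and monocyte genes, 2 lay above and 1 below, with a median of 0.24, and the summed shares overlapped (0.00611% to 0.0097% and 0.0043% to 0.00853%). Of 16 microglia genes 1 lay above every control and none below, with a median of -0.17 against 0.99 in the other 6 DBA/2J libraries. That 1 gene was Cx3cr1, the fractalkine receptor, at 68.6, 172, 116, 224 and 205 in the controls and 428, 339 and 274 in the 3 libraries. It rose by 2.14 over all libraries (SE 0.40, adjusted p = 0.00228), with an adjusted p of 0.199 with log2 Lcn2 as a covariate. After removal of the length and GC trend no microglia gene lay above every control and 2 lay below. Complement genes were above every control in 2 of 20 cases and below in 1, with a median of 0.30 against 2.11. Cfb, complement factor B, was at 80.5 to 259 in the controls and 386, 339.9 and 438 in the 3 libraries, and at 937 to 2579 in the other 6. It rose by 2.60 (SE 0.47, adjusted p = 0.00187; 0.157 with the covariate). Of 7 class II histocompatibility genes, 2 were below every control. H2-Ab1 was at 732 to 1399 and 716, 651 and 426, with an adjusted p of 0.673 over all libraries, and reads may be shared with close relatives. Plac8, the 1 macrophage and monocyte gene below every control, was at 528 to 1254 and 361, 145 and 139.7. It passed with the covariate (-2.34, adjusted p = 0.013) and not over all libraries (0.185).

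Of 18 rod and cone genes 2 lay above every control and 0 below, a smaller share above than among all coding genes (15.8%), with differences of -0.34 to 1.15 and a median of 0.37 against -0.20 in the other 6 DBA/2J libraries. Pde6a, a catalytic subunit of the rod phosphodiesterase, stood at 5282, 5656, 5604, 3709 and 6243 in the controls and at 8149, 10461 and 13566 in the 3 libraries. It missed the test over all libraries (0.59, SE 0.21, adjusted p = 0.0602; 0.0474 without DBA/2J sample 8 and 0.0216 without sample 9) and passed with log2 Lcn2 as a covariate (1.08, adjusted p = 0.0214). Of 18 interneuron genes (bipolar, amacrine and horizontal cells), 5 lay above every control and 0 below, with differences of -0.88 to 1.0. Over all libraries limma called 6 of them higher and 2 lower. After removal of the length and GC trend, 3 lay above every control and 1 below, where 9.8% of coding genes lay above and 11.6% below. Gad1, which makes the transmitter GABA, was at 1019 to 2437 in the controls and 3100.5, 3417 and 3344 in the 3 libraries. It rose by 0.89 (SE 0.21, adjusted p = 0.00791) and passed with the covariate (0.0253), but not after removal of the length and GC trend (0.0721).

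Of 16 retinal ganglion cell genes, 1 lay above and 2 below every control, with a median of -0.28 against -0.76 in the other 6 libraries. That median was 0.02 without DBA/2J sample 4. Sncg, a ganglion cell marker, stood at 5614, 5794, 10129, 7978 and 5535 in the controls and at 4121, 4997 and 2248 in the 3 libraries, and at 1060.1 to 3805 in the other 6. Sncg fell over all libraries (-1.42, SE 0.29, adjusted p = 0.00356), with an adjusted p of 0.26 with log2 Lcn2 as a covariate. Nefl, the light neurofilament of large axons, overlapped at 5402 to 9143 in the controls and 13551, 14945 and 8089.5 in the 3 libraries. It did not pass over all libraries (adjusted p = 0.903).

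Stress genes of the endoplasmic reticulum (ER) and Atf3 were high in the 3 libraries as in the other 6. Atf3, a transcription factor induced by injury and ER stress, stood at 155, 225, 77.6, 164 and 219 in the controls and at 506, 835 and 605 in the 3 libraries. The groups did not overlap, and the other 6 DBA/2J libraries held 582 to 913. Atf3 rose over all libraries (2.12, SE 0.22, adjusted p = 3.38e-05) and with log2 Lcn2 as a covariate (1.99, adjusted p = 0.00579). It was the 1 gene among 18 immediate early genes that lay above every control. Of 18 ER stress genes, 7 lay above every control and 0 below (median 0.40, and 0.62 in the other 6 libraries). After removal of the length and GC trend 4 lay above, where 9.8% of coding genes lay above and 11.6% below.

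Atf6, a stress sensor of the ER membrane, was at 609, 440.3, 392, 297 and 476 in the controls and at 988, 1099 and 1425 in the 3 libraries. It rose by 1.27 (SE 0.19, adjusted p = 0.000572) and by 1.53 with log2 Lcn2 as a covariate (adjusted p = 0.00722). Sel1l, part of the machinery that removes misfolded ER proteins, was at 358 to 789 and 1057, 1024 and 1659.8 (adjusted p = 0.00135; 0.02 with the covariate). Pdia4, an ER disulphide isomerase, was at 939 to 1538 and 1939, 1964 and 2543 (adjusted p = 0.00223; 0.0457 with the covariate). The classical downstream factors overlapped the controls, with Atf4 at 3444 to 5292 and 3227, 4558 and 4511, and Ddit3 at 1189.5 to 2330.0 and 964, 1225 and 1331. In the glycolysis and hypoxia list 4 of 19 genes lay above every control and 0 below, where 15.8% of coding genes lay above. After removal of the length and GC trend 2 of the 19 lay above, near the 9.8% of coding genes after the same removal. Over all libraries limma called 3 of the list higher and 1 lower. Hif1a, the oxygen-sensitive transcription factor, was at 4526, 2373, 795, 1826 and 2937 in the controls and at 5230.4, 6310.2 and 8278 in the 3 libraries. It rose by 1.36 (SE 0.30, adjusted p = 0.00573) and by 1.74 with the covariate (adjusted p = 0.0201). Hk1, the first enzyme of glycolysis, was at 1064 to 2650.2 and 3490.1, 3967 and 6714, and rose by 1.26 (SE 0.21, adjusted p = 0.0011; 0.0145 with the covariate).

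Short transcripts were low and long ones high in the 3 libraries. Coding genes were put in 10 equal bins by their longest transcript. In bin 1 (135 to 1419 nucleotides) the median difference was -0.654, 0.604% of genes lay above every control and 51.1% below. In bin 9 (5334 to 6930 nucleotides) the median was 0.495, with 32% above and 3.09% below. The slope of each library's centred log2 values on log2 length was 0.152, 0.138 and 0.29 in DBA/2J samples 1, 3 and 4. It was -0.383 to -0.089 in the controls and -0.09 to 0.157 in the other 6 DBA/2J libraries. Counts of short and long genes are to be read beside this trend, and its part in each gene's difference was not tested beyond the removal of a length and GC trend.

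**Figure D5:**
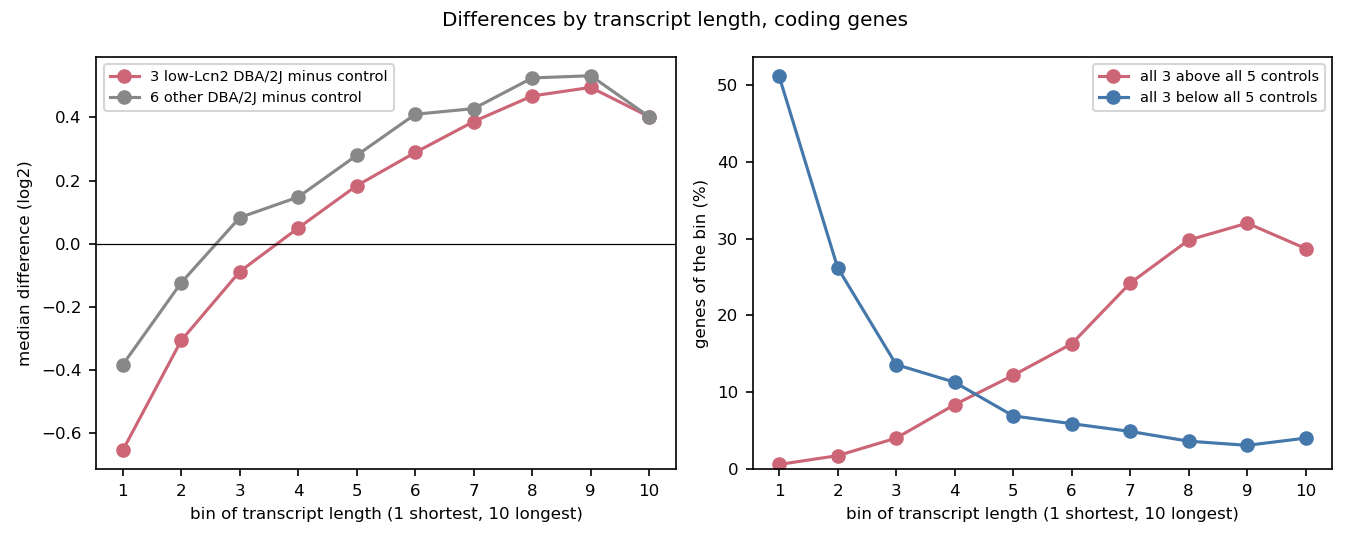
Left, median difference of the mean log2 values from control for 3 low-Lcn2 and 6 other DBA/2J libraries in 10 equal bins of coding genes by transcript length. Right, share of each bin's genes lying above or below every control in the 3 low-Lcn2 libraries. The share below control ran from 51.1% in bin 1 to 3.09% in bin 9.

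Nuclear genes of oxidative phosphorylation were low. Of 21 such genes 13 lay below every control and 1 above, with a median of -0.78. After removal of the length and GC trend 9 lay below and the median was -0.42. Over all libraries limma called 13 lower and 1 higher, and with log2 Lcn2 as a covariate 11 lower. Ndufa1, a complex I subunit on the X chromosome, stood at 3844, 3662, 6882, 4427 and 4683 in the controls and at 1941, 2402 and 1686 in the 3 libraries. It fell by 1.02 on the log2 scale (SE 0.18, adjusted p = 0.00152). Atp5j, a subunit of ATP synthase, was at 6084 to 12225 and 3560.1, 4273 and 2828 (-1.05, SE 0.17, adjusted p = 0.00101). Both still passed after removal of the trend (0.00402 and 0.00135). Of the 13 protein-coding genes of the mitochondrial genome, 1 lay below every control, mt-Nd3 at 539 to 1208 and 177, 457 and 195. The median was -0.86, and -0.205 in DBA/2J sample 3 alone. Limma called 9 of the 13 lower over all libraries and 1 with log2 Lcn2 as a covariate.

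The metallothioneins Mt1 and Mt3 and the chaperones Hspe1 and Hspb1 lay below every control. Of 14 genes of the NRF2 and metallothionein list, 4 lay below and none above, with a median of -0.29. Mt1, a metal-binding protein induced by zinc and glucocorticoids, stood at 16400.4, 16394, 25228, 15201 and 12828 in the controls and at 7826, 5749 and 5745 in the 3 libraries. It did not pass over all libraries (-0.70, adjusted p = 0.115; 0.0276 without DBA/2J sample 9) and passed with log2 Lcn2 as a covariate (-1.39, adjusted p = 0.0318). Mt3, the neural metallothionein, was at 1517 to 3692 and 923, 879 and 545. It fell by 1.04 on the log2 scale (SE 0.27, adjusted p = 0.013; 0.051 without control sample 3). Of 15 heat shock genes 3 lay below every control and none above, with a median of 0.14. After removal of the length and GC trend 2 lay below and 1 above. Hspe1, the mitochondrial co-chaperone, was at 1916 to 3148 and 1150.2, 1342 and 872, and fell by 0.93 on the log2 scale (SE 0.17, adjusted p = 0.00218). Hspb1, a small heat shock protein, was at 1891 to 4148 and 1021, 1187 and 774. It fell over all libraries (-0.89, adjusted p = 0.046), a call missed when any of control samples 1, 3 or 4 or DBA/2J samples 1, 2, 3, 4, 5 or 7 was left out (adjusted p from 0.0554 to 0.137) and after removal of the trend (0.0662). Hspa8, the constitutive chaperone, overlapped at 8882 to 12419 and 11768, 13649.9 and 13430.1.

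All of the 12 largest negative differences under the rule for named genes were in lens genes. Of 23 measured lens genes 22 lay below every control and none above, with a median of -5.63, close to the -5.93 of the other 6 DBA/2J libraries. Limma called all 23 lower over all libraries and 10 with log2 Lcn2 as a covariate. Cryaa, alpha-A crystallin, stood at 1200607, 567108, 676143, 873477 and 557907 in the controls and at 53023, 37290.2 and 105 in the 3 libraries. DBA/2J sample 4 was far below the other two, and it listed the lens genes Cryba4, Lim2 and Foxe3 at 0. Cryaa fell by 7.80 on the log2 scale (SE 1.58, adjusted p = 0.00354; 0.117 with the Lcn2 covariate). Foxe3, a transcription factor of lens epithelium, was at 158, 36.6, 237, 112 and 282 in the controls and at 1.84, 2.42 and 0 in the 3 libraries. It fell by 6.46 on the log2 scale (SE 0.56, adjusted p = 3.17e-06; 0.00227 with the covariate). Lens tissue is no part of a retinal vein, and the part of its RNA in other differences was not tested gene by gene beyond the covariate fit above.

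The promoters of 3 of these crystallin genes are shown as examples, and any part of them in these differences was not tested. Maf-family factors are known to bind crystallin promoters in the mouse lens, and capitals mark the MAF core TGCTGA on either strand. Each line gives RefSeq sequence of GRCm38.p6 in the direction of the gene, from 250 bases before its start to 50 after: Cryaa at chr17:31677681-31677980 (forward strand), beta-A4 crystallin Cryba4 at chr5:112252469-112252768 (reverse strand) and gamma-S crystallin Crygs at chr16:22811361-22811660 (reverse strand).
Cryaa: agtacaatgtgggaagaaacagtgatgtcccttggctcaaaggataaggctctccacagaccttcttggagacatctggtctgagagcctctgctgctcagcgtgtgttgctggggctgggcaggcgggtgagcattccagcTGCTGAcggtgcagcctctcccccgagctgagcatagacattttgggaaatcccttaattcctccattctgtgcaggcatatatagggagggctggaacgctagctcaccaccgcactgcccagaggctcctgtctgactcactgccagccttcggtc
Cryba4: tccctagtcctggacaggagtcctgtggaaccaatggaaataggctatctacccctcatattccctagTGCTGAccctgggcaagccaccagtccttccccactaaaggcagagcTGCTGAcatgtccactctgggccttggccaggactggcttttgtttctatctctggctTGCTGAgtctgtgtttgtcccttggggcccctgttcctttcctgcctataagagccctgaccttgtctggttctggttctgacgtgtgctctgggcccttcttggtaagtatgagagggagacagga
Crygs: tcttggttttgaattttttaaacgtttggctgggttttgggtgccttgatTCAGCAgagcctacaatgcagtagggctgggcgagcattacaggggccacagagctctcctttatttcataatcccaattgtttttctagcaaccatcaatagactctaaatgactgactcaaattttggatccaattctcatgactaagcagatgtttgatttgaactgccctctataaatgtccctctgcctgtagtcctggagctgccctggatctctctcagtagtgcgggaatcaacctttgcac
The match began 108 bases before the start in Cryaa and 200 before it in Crygs. Cryba4 held 3 matches, at 182, 135 and 77 bases before the start. Of the 24 lens genes 22 had a promoter window, and 14 of those held the motif, against 19.5% of 32851 windows. The list was counted by gene and the background by window, and a gene with several windows has more chances to match. Those shares are therefore not directly comparable, and an excess was not tested. Cryba4 itself stood at 30001, 14271, 22759, 31001 and 10336 in the controls and 1466, 1477 and 0 in the 3 libraries, and Crygs at 106711 to 256142 and 12460.1, 9995 and 25.9. Reads of these closely related crystallins may be shared out uncertainly between genes.

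Genes of pigment cells were low in the 3 libraries. Of 12 melanosome genes 7 lay below every control and 0 above, with a median of -1.26 against -0.65 in the other 6. The summed share was 0.0782% to 0.14% in controls and 0.0267% to 0.0493% in the 3 libraries. Pmel, which builds the fibrils of melanosomes, stood at 909, 434, 284, 445 and 398 in the controls and at 83.9, 55.1 and 51.1 in the 3 libraries. It fell by 2.35 on the log2 scale (SE 0.45, adjusted p = 0.00255; 0.0252 with log2 Lcn2 as a covariate). Slc45a2, a melanosomal transporter, was at 83.7 to 194 and 33.1, 9.7 and 19.0, and fell by 2.17 (SE 0.38, adjusted p = 0.0015; 0.00761 with the covariate). Dct, dopachrome tautomerase of the melanin pathway, stood at 16644, 10357, 15441, 10336 and 7693 in the controls and at 4564, 2505 and 2421 in the 3 libraries. All 3 lay below all 5, while the other 6 ran from 3546 to 24902, and Dct did not pass over all libraries (-1.12, SE 0.43, adjusted p = 0.0764; 0.00805 without DBA/2J sample 5).

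The Dct promoter is given as an example of this group, since MITF, the master factor of pigment cells, is known to bind the M-box core CATGTG in it. The line below gives RefSeq sequence of GRCm38.p6 at chr14:118052197-118052496 (reverse strand), with the core on either strand in capitals.
Dct: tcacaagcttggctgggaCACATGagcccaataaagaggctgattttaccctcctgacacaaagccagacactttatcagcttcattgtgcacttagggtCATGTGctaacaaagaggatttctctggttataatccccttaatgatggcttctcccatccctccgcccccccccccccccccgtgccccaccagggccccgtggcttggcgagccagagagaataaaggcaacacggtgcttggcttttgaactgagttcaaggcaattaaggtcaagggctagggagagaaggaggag
Matches began 232 and 150 bases before the start. Of 12 listed pigment genes 8 had a window and 5 of those held the core, against 14.2% of all windows. Here too genes were set beside single windows, so the shares are not directly comparable. Markers of retinal pigment epithelium were also low: of 11 genes 3 lay below every control and 0 above, with summed shares of 0.451% to 0.73% in controls and 0.264% to 0.482% in the 3 libraries. Mlana, listed there, was at 1145 to 2123 and 703, 342 and 395. The part of carried-over pigmented tissue in these values was not tested.

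Red cell genes spread widely among controls. Of 7 haemoglobin and red cell genes 1 lay below every control, near the 13.1% of all coding genes, and limma called none higher or lower over all libraries. Their median was -2.39 against -0.63 in the other 6 DBA/2J libraries. That median was -1.10 against controls 4 and 5 alone. Hba-a1, an alpha-globin, stood at 227547, 127759.6, 220309.8, 54293 and 26109 in the controls and at 22594, 16758 and 10623 in the 3 libraries. All 3 lay below the lowest control, sample 5. Hba-a1 did not pass over all libraries (-1.41, adjusted p = 0.11; 0.0281 without DBA/2J sample 9 and 0.0364 without control sample 5) and passed with log2 Lcn2 as a covariate (-3.00, adjusted p = 0.0183). Near-identical globin copies share reads, so single globin values are uncertain.

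The 12 largest positive differences with no overlap and a call over all libraries included channel and receptor genes, an ER enzyme and an RNA-binding protein. Chrna7, a nicotinic receptor subunit, stood at 114, 33.5, 2.89, 13.1 and 29.9 in the controls and at 155, 170.1 and 315 in the 3 libraries. It rose by 2.73 (SE 0.55, adjusted p = 0.00346) and passed with log2 Lcn2 as a covariate (3.17, adjusted p = 0.0218). Kcna3, a voltage-gated potassium channel, was at 57.7, 122, 0, 47.0 and 254 in the controls and at 451, 451 and 364 in the 3 libraries. The 0 in control sample 3 enlarges its log2 fold change of 3.35 (adjusted p = 0.0106; 0.0981 with the covariate). Gabrb2, a GABA receptor subunit, was at 17.2 to 62.4 and 186, 160.3 and 229, above or near the top of the other 6 DBA/2J libraries (68.4 to 178). It rose by 1.81 (SE 0.32, adjusted p = 0.00171; 0.00823 with the covariate).

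Edem3, a mannosidase of ER quality control, stood at 273, 206, 67.3, 131 and 223 in the controls and at 625, 749 and 1088 in the 3 libraries. Edem3 rose by 2.11 (SE 0.29, adjusted p = 0.000372; 0.00722 with log2 Lcn2 as a covariate). Dnaaf5, an assembly factor of axonemal dynein, was at 42.6 to 176 and 349, 405 and 562. It rose by 2.30 (SE 0.27, adjusted p = 0.000113; 0.00722 with the covariate). Nufip2, an RNA-binding protein, was at 175 to 597 and 1091, 1515 and 1702, and rose by 1.91 (SE 0.25, adjusted p = 0.00021; 0.0022 with the covariate). The others among the 12 largest were Kcnh5, Adnp, Steap2, Olfm3, Prag1 and Vcl, with differences of 2.09 to 2.52 in the 3 libraries. In control sample 3 the values of Kcnh5 (20.6), Adnp (13.2), Vcl (34.3) and Chrna7 (2.89) were each the lowest of the 5 controls.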

How the data were processed

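Per the labels' protocols, about 100 pg of RNA (integrity number above 9) was amplified with SMART-Seq v4 and made into Nextera XT libraries. The series design text states GRCm38, GENCODE M23 and kallisto quantification, whereas GRCm39 and sleuth appear beside kallisto in the submitters' processing notes, which leaves the build unsettled. The deposited table holds 1 signal value per gene and library, which from the values are estimated kallisto counts divided by a factor per library (scaled counts). The sources used here do not say how the authors made the factors. Between 19.2% and 22.2% of values per library were whole reads (tolerance 0.01), so no count model was run and limma took the place of the count test in the design.

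Of 40149 rows, 26 date-like symbols (at most 0.201% of a total) were left out, and 39019 of the other 40123 matched GENCODE M21 (GRCm38), which gave positions, types and lengths. Genes at 1 or more in 5 or more libraries entered: 29166. Values were log2(value + 1), which shrinks differences of low genes. The test was limma 3.58.1 (trend, two-sided, Benjamini-Hochberg at 0.05) in R 4.3.3, with strain as the only term. For libraries chosen on Lcn2 the text gives values, differences of means and non-overlap, and no test. The Lcn2 covariate fit covered 29165 genes. The removed trend was a spline of 5 degrees of freedom on length and GC per library.

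The libraries, the 39 gene lists and the rule for named genes were chosen with earlier results of these data known. Named genes were Lcn2, Lrg1, Serpina3n, Gpnmb and 16 vessel and marker genes, the 12 largest differences each way among genes of at least 5 CPM past both criteria, and up to 4 non-overlapping and 2 overlapping genes per list. Some of these genes are not reported here. Alternatives covered pseudocount, filter, scaling, trend removal, the Lcn2 limit, covariates, control subsets, a replicate block, voom weights and each library left out. Tested on simulated data (29166 genes, 200 changed, 9 against 5 libraries), limma recovered 67% of 2-fold and 94% of 4-fold changes, with 4.17% of calls false. These rates describe the simulated data. They do not cover real calls that follow lens content, which cannot be told apart from strain here. Depth ran from 8931959 to 33786257 estimated reads, with no molecular identifiers.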

Additional observations from a re-analysis of the deposited data

Results flagged for a closer look

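Across 126 named genes, 252 sets of values (5 controls or 9 DBA/2J libraries) were searched for 1 library far from the rest. Chance alone flags about 1 in 20 sets, and 8 were flagged. Control sample 1 was highest for Stat3 at 450.0, with the other controls at 351.2 to 358.3, and for Wnt7b at 2894.1, with the others at 929.7 to 1254.3. Control sample 3 was highest for Id3 at 4182.1 (others 2655.1 to 2798.3), for Cox6c at 18731.3 (others 10542.6 to 11007.8) and for Psmb8 at 2917.2 (others 1104.6 to 1383.2), and lowest for Stat2 at 178.3 (others 271.7 to 290.6). Among DBA/2J libraries, sample 4 was lowest for Angptl4 at 54.4 (others 116.6 to 221.4) and sample 9 highest for S100b at 1545.1 (others 249.3 to 555.7). Without the far library the differences for Stat3, Wnt7b and Angptl4 kept their direction.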

How the results depend on the processing

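Counts of genes above and below every control (2762 and 2765 as reported) depended on how many libraries had to separate. They were 5761 and 6040 against controls 4 and 5 alone, and 4225 and 4417 against controls 1 to 3 alone. They were 5360 and 5502 for DBA/2J sample 3 alone, the 1 library with Lcn2 below 500, and 2331 and 1825 with Lcn2 below 2000, which adds sample 5. Adding sample 2 instead gave 1866 and 2220, a set chosen after seeing the data, as was sample 3 alone. Leaving out each library in turn gave 2996 to 3951 above and 3055 to 3810 below. Scaling each library to its own total gave 4580 and 1664 (73.4% above, against 50.0%). No other scaling moved that share by over 10 points.

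The limma counts over all libraries (3518 higher, 2101 lower) were 5428 and 1308 with own-total scaling, 5213 and 1338 with voom weights and 2740 and 2868 with quantile normalization. They were 1593 and 2171 after trend removal, 1673 and 773 with controls 4 and 5 alone, 2334 and 1373 with controls 1 to 3 alone, 1646 and 1200 with log2 Lcn2 as a covariate, and 1 and 8 with the lens mean. Leaving out each library gave 2283 to 3974 and 1247 to 2341, the lowest without control sample 3. With the lens mean the values of Cryaa (1.31, adjusted p = 0.452), Cryba4 (1.26, 0.507), Crygs (1.13, 0.361) and Lim2 (0.09, 0.983) turned positive, and with the pan-endothelial mean Cdh5 became -0.60 (adjusted p = 0.0409). The cause was not tested, except that the lens mean is made of these lens genes.

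Labels number replicates from 1 in both groups. Same-numbered libraries did not deviate together (correlations from -0.082 to 0.015), so no pairing by number was seen. Correlations over all genes cannot show that mice were not paired. With a replicate block limma called 1408 higher and 1057 lower, and libraries paired by number gave 5606 above and 6321 below. Of 126 named genes, the lens mean took 79 out of the calls and reversed 4, controls 4 and 5 alone took out 42, log2 Lcn2 32 and trend removal 16. Log2 Lcn2 brought in 12, and so did leaving out DBA/2J sample 9, which took out 1. Trend removal also shifted the difference between the 3 libraries and the controls for 25 of the 126 genes and left it the same for 101. Among the 25 were Kdr (1.545 to 1.103), Stat3 (1.011 to 0.655) and Plvap (-0.793 to -0.448). Low counts limit Selp, Wnt7a and Foxe3.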

Other observations

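Interferon genes went both ways in the low-Lcn2 libraries: of 18, 2 lay above every control and 3 below, with a median difference of -0.23 against 0.74 in the other 6 DBA/2J libraries. Ifit2, an interferon-induced antiviral gene, stood at 132, 94.8, 61.5, 82.3 and 95.9 in the controls and at 193, 218 and 203 in DBA/2J samples 1, 3 and 4, and rose over all libraries (1.38, SE 0.22, adjusted p = 0.000906, limma; 0.0261 with log2 Lcn2 as a covariate). Stat2, a partner in interferon signalling, was at 178 to 291 in the controls and 529, 375 and 444 in the 3 libraries, and rose by 0.69 (adjusted p = 0.00619), a call missed with the covariate (0.0595) and after removal of the length and GC trend (0.287). Rsad2 and Ifi27, also interferon-induced, lay below every control, with Rsad2 at 193 to 935 and 186, 185 and 105, and neither passed over all libraries (adjusted p = 0.558 and 0.436).

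Of 20 basement membrane genes, 2 lay below every control and none above, a smaller share below than among all coding genes (13.1%). Their differences ran from -1.36 to 0.36 (median -0.40, and 0.58 in the other 6 libraries). After removal of the length and GC trend, 5 of the 20 genes lay below every control (median -0.53). That was a larger share than the 11.6% of coding genes below control after the same removal. Hspg2, the large basement membrane proteoglycan perlecan, was at 254, 267, 307, 203 and 225 in the controls and 199, 55.7 and 162 in the 3 libraries, and did not pass over all libraries (0.04, adjusted p = 0.967) or with the covariate (0.127). Lyve1, a hyaluronan receptor of lymphatic and some venous endothelium and of macrophages, was at 168, 119, 111, 79.3 and 137 in the controls and 259, 228 and 179.7 in the 3 libraries. It rose by 0.93 (SE 0.18, adjusted p = 0.00301) and passed with the covariate (0.0492). Ly75, an endocytic receptor of dendritic cells, was at 3.26 to 59.2 and 89.5, 97.0 and 170.0, and rose by 3.18 (SE 0.52, adjusted p = 0.00106; 0.0483 with the covariate).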
